A study of Homo sapiens with 17 samples.

Results

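A set of 9 genes of the aldo-keto reductase and NRF2 pathways were followed across 17 RNA-seq libraries of 2 squamous cancer cell lines, namely 4 aldo-keto reductases (AKR1C1, AKR1C2, AKR1C3 and AKR1B10) and 5 further NRF2 targets (NQO1, GCLC, GCLM, TXNRD1 and SRXN1). They were selected on gene symbol, as 9 of the 57820 genes listed for every library, and the set was chosen by a measured value, the low level of AKR1C3 after SOX2 knockout. For that reason all values of the SOX2 knockout comparison are given here as a description, without a test. The aim of the comparisons was to see how these genes stood when SOX2, its enhancer e1 or BET proteins were perturbed.

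Of the libraries, 13 came from KYSE140, an esophageal squamous cancer line, and 4 from SKMES1, a lung squamous cancer line. In KYSE140, 2 libraries carried CRISPRi, which silences a targeted site, with negative-control guides and 2 carried CRISPRi with guides to e1. Further KYSE140 libraries carried active Cas9 with control guides to AAVS1 or to a chromosome 2 site (sg-Chr2.2; 2 libraries) or with 3 guides to the coding region of SOX2 (3 libraries). The remaining KYSE140 libraries were treated for 6 h with DMSO (2 libraries) or with 0.5 uM ARV-771, a degrader of BET proteins (2 libraries). In SKMES1, CRISPRa (dCas9-VP64, an activating fusion) was used with negative-control guides (2 libraries) or guides to e1 (2 libraries). The guide-bearing cells were selected pools and not single clones, and replicates were different guides, or for the drug the cultures named A and B, so that p-values measured the spread between such samples.

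NRF2 (gene NFE2L2) is a transcription factor that KEAP1 holds at low levels by marking it for degradation. Under oxidative or electrophilic stress KEAP1 is inactivated, and NRF2 then pairs with small MAF proteins at antioxidant response elements and switches on genes for glutathione synthesis, thioredoxin recycling, NADPH supply and detoxification, while BACH1 competes for the same sites. The aldo-keto reductases reduce aldehydes and ketones with NADPH. AKR1C1, AKR1C2 and AKR1C3 act on steroids, AKR1C3 also on prostaglandins, and AKR1B10 on retinal and lipid aldehydes. The pathway is often active in squamous cancers through mutation of NFE2L2 or KEAP1.

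The AKR1C genes lie side by side on chromosome 10 and share sequence, so RSEM, the program that produced the counts, had to divide reads among them. In GRCh37, the build of the files, AKR1C1 spans chr10:5005445-5025475 on the + strand, AKR1C2 chr10:5029967-5060223 on the - strand and AKR1C3 chr10:5077546-5149878 on the + strand. Their first coding exons are shown as an example of the bases in which the 3 genes differ. They lie at chr10:5005637-5005720 (AKR1C1), chr10:5045944-5046027 (AKR1C2) and chr10:5136637-5136720 (AKR1C3), and capitals mark each base that differs from AKR1C1.
AKR1C1: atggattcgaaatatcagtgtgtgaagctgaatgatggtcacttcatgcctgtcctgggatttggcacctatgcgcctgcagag
AKR1C2: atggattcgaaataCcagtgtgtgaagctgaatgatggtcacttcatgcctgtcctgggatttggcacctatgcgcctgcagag
AKR1C3: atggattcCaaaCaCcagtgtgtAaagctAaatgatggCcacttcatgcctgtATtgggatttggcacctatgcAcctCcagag
Over these 84 bases AKR1C2 differed from AKR1C1 at 1 base and AKR1C3 at 10. Over the whole coding sequence of 969 bases, AKR1C1 and AKR1C2 were 98.0% identical (19 differences), and AKR1C3 was 91.4% identical to AKR1C1 (83 differences) and 91.0% to AKR1C2 (87 differences). Of all 100-base windows in annotated AKR1C2 transcripts, 19.1% occurred unchanged in a transcript of AKR1C1. For AKR1C3 only 0.448% of such windows occurred in AKR1C1 and 1.70% in AKR1C2. Thus AKR1C3 was separable from its neighbours by sequence, while the division of reads between AKR1C1 and AKR1C2 was less certain. Expected counts of AKR1C1, AKR1C2 and AKR1C3 were not whole in any of the 17 libraries, the mark of shared reads, and AKR1C4, a further cluster member, had at most 1 count in any library. AKR1B10 shared 0.887% of its 100-base windows with its neighbour AKR1B15.

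Promoter windows of 300 bases, 250 before to 50 after the start, were available from RefSeq (GRCh38.p14) for 8 of the 9 genes, with 10 windows in all, and AKR1B10 was not among them. The core of the antioxidant response element (TGACNNNGC, both strands) occurred in windows of GCLM and TXNRD1, and in 13.3% of all 35116 windows of the table. The windows of these 2 genes are shown with the core in capitals, GCLM at chr1:93909381-93909680 on the - strand and TXNRD1 at chr12:104215529-104215828 on the + strand.
GCLM: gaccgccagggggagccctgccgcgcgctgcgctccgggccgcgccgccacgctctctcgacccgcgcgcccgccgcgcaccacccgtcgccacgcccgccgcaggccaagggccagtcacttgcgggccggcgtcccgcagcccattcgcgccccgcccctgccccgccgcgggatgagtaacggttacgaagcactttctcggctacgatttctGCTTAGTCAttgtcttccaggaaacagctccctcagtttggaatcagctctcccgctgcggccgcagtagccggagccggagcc
TXNRD1: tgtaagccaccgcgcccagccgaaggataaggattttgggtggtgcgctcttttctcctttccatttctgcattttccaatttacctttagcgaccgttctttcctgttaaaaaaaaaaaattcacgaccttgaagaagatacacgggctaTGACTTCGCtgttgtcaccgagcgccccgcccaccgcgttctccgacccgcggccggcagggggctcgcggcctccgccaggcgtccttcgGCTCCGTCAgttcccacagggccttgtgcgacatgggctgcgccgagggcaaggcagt
In GCLM the core stood at positions -34 to -26 relative to the start, which is counted as 0, and TXNRD1 held 2 cores in this window and a further core in its other window. A core letter string of SOX factors (ACAATG, both strands) occurred in 10.8% of all windows and, among the 9 genes, in windows of AKR1C3 and GCLM. The window at the downstream start of AKR1C3 (chr10:5094164-5094463, + strand) is shown beside that of AKR1C2 (chr10:5003808-5004107, - strand), with this string in capitals, because these neighbours differed in level after perturbation of SOX2.
AKR1C3: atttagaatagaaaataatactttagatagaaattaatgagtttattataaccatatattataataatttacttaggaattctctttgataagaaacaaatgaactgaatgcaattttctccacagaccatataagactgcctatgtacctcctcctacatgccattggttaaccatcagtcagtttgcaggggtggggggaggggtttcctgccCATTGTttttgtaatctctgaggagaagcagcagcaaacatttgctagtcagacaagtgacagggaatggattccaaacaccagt
AKR1C2: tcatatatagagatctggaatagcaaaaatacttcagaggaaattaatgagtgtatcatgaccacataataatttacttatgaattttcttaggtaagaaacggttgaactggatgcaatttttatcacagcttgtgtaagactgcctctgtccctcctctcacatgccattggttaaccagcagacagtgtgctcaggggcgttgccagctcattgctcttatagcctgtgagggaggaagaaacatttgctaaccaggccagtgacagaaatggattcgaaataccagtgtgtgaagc
The string stood at positions -35 to -30 in this window of AKR1C3 and was found neither in its other window (chr10:5048531-5048830) nor in those of AKR1C1 and AKR1C2. In GCLM it lay at -27 to -22 and shared 2 bases with the antioxidant core. An AP-1 string (TGANTCA, both strands), which can overlap the antioxidant core, occurred in 7.71% of all windows and in none of the 10 windows of these genes. These matches describe letters in a window and not bound sites.

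Depth ranged from 7260730 to 15781463 expected counts per library, and 3 counts corresponded to 0.19 to 0.413 CPM (counts scaled to library size). All KYSE140 libraries carried the squamous markers KRT5 (2398 to 8392 TPM, a level per transcript length, scaled within each library) and TP63 (29.6 to 182 TPM). In SKMES1 most of these markers were near 0: KRT5 was 0.05 to 1.26 TPM, KRT6A 0.32 to 19.2 TPM, DSG3 at most 0.1 TPM, CDH1 0.6 to 4.74 TPM and TP63 1.87 to 3.79 TPM. SFN, at 321 to 812 TPM, lay within its KYSE140 range of 134 to 3767 TPM, and EPCAM, at 29.4 to 41.7 TPM, was present below its KYSE140 range of 107 to 254 TPM. Each SKMES1 control stood apart in some genes. Replicate 2 had 118 TPM of KRT14, which was at most 0.31 TPM in the other 3 SKMES1 libraries. Replicate 1 had 35664 TPM of FTL, a listed NRF2 target, against 11635 to 13840 TPM in the others. It also had 49 TPM of NR0B1, another listed target, against 13.4 to 19.7 TPM. For some genes, values without 1 of these controls are given below. The leukocyte marker PTPRC and the neuroendocrine marker CHGA stayed at or under 0.55 TPM everywhere, and the fibroblast collagen gene COL1A1 ranged from 9.81 to 43.9 TPM. SOX2, the gene targeted through its enhancer, fell with e1 repression (379 and 365 TPM against 120 and 128 TPM). It was also lower with SOX2 guides, at 103, 125 and 221 TPM against 397 and 428 TPM, with the highest value for guide 4. In SKMES1, SOX2 stood at 1.68 and 1.53 TPM with control guides and at 224 and 316 TPM with e1 guides.

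**Figure D1:**
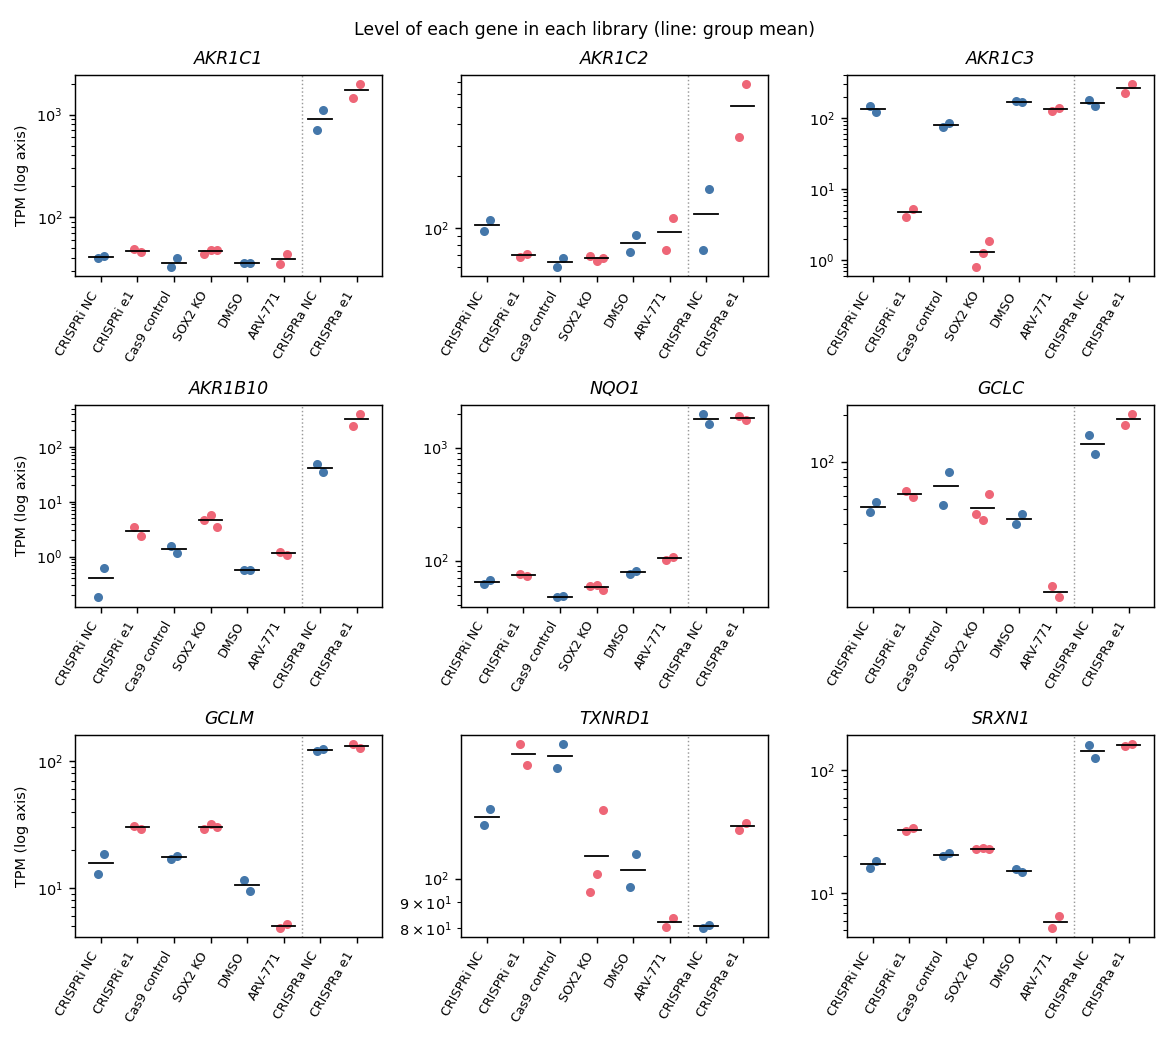
Level in TPM (log axis, a range of its own in each panel) of the 9 genes in each of the 17 libraries, by group; points are libraries, lines are group means, blue marks the control groups and red the perturbed groups, and the dotted line separates KYSE140 (left) from SKMES1 (right). AKR1C3 stands at 4.13 and 5.34 TPM with e1 CRISPRi and at 0.8 to 1.88 TPM with SOX2 guides, under all other libraries.

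In the first comparison, e1 repression in KYSE140, AKR1C3 fell 26.9-fold and AKR1C2 1.59-fold, whereas SRXN1 rose 1.92-fold and GCLM 1.73-fold. AKR1B10 rose as well, from a level near the limit of detection. Libraries were scaled by TMM, which sets the typical gene to no change. Genes were called at an adjusted p under 0.05 (edgeR quasi-likelihood test, Benjamini-Hochberg) and a fold change over 1.5. By this rule 3 of the 9 genes rose and 2 fell, while among all 13792 genes tested 9.3% rose and 10.7% fell. Of these, AKR1B10 entered the test only through its high group, and without it 2 of 8 rose. The median log2 fold change was 0.21 over the 9 genes and close to 0 (-0.0015) over all genes tested.

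AKR1C3 measured 146 and 123 TPM with the negative-control guides and 4.13 and 5.34 TPM with the e1 guides. Both e1 libraries lay far under both controls, at 29.9 and 40.9 expected counts against 1235 and 1063. The log2 fold change was -4.75 ± 0.15 (SE, n = 2 against 2; adjusted p = 7.8e-13, edgeR). AKR1C2 measured 96.3 and 112 TPM in the controls and 68.5 and 70.8 TPM with e1 guides, without overlap (log2 fold change -0.67 ± 0.07, adjusted p = 1.9e-06, edgeR). The AKR1C2 call was lost in limma on log2(TPM + 1) and on log2(TPM + 0.1), where the value of -0.57 fell short of the fold threshold, and with all libraries in one fit (adjusted p = 0.157). For AKR1C1, 40.2 and 42.1 TPM stood against 49.5 and 45.9 TPM, and the log2 fold change of 0.18 ± 0.10 did not pass the test (adjusted p = 0.146, edgeR). Of the 3 genes, therefore, AKR1C3 carried most of the loss. With the reads of the AKR1C genes summed, a quantity that their division cannot alter, the log2 fold change was -1.20 ± 0.06 (adjusted p = 4.3e-10, edgeR).

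AKR1B10 had 0.18 and 0.63 TPM in the controls, that is 2 and 7 expected counts, and 3.44 and 2.39 TPM with e1 guides (20.1 and 16 counts). The groups did not overlap, and the log2 fold change was 2.24 ± 0.60 (adjusted p = 0.0071, edgeR), but the gene passed the count filter only through the group in which it was higher. The call was lost without negative-control replicate 1 (1.64, adjusted p = 0.121) or e1 replicate 1 (2.01, adjusted p = 0.0591), and the sum with AKR1B15 gave 0.65 ± 0.40 (adjusted p = 0.208, edgeR).

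Among the glutathione genes, GCLM, the modifier subunit of glutamate-cysteine ligase, rose while GCLC, its catalytic subunit, did not pass the fold threshold. GCLM measured 12.98 and 18.5 TPM in the controls and 30.7 and 29.4 TPM with e1 guides (log2 fold change 0.79 ± 0.08, adjusted p = 1.4e-06, edgeR). GCLC measured 47.4 and 54.7 TPM against 64.5 and 59.5 TPM, with a log2 fold change of 0.21 ± 0.07. SRXN1, sulfiredoxin, which restores over-oxidized peroxiredoxins, measured 16.2 and 18.4 TPM against 32.1 and 33.9 TPM (log2 fold change 0.94 ± 0.09, adjusted p = 5.2e-07, edgeR). Both SRXN1 and GCLM thus stood higher in each e1 library than in either control. TXNRD1, the cytosolic thioredoxin reductase, measured 128 and 137 TPM against 184 and 167 TPM. Its log2 fold change of 0.47 ± 0.05 passed the test of significance (adjusted p = 2.4e-06, edgeR) but not the fold threshold. NQO1, a quinone reductase widely used as a readout of NRF2, measured 62.0 and 66.8 TPM against 75.3 and 72.8 TPM, and the log2 fold change of 0.18 ± 0.09 did not pass (adjusted p = 0.112, edgeR).

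The shift within the AKR1C cluster was also visible as a share. AKR1C3 made up 51.7% and 44.5% of the summed TPM of AKR1C1, AKR1C2 and AKR1C3 in the negative-control libraries and 3.38% and 4.38% in the e1 libraries. The summed level itself was 282 and 277 TPM in the controls and 122 TPM in both e1 libraries.

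**Figure D2:**
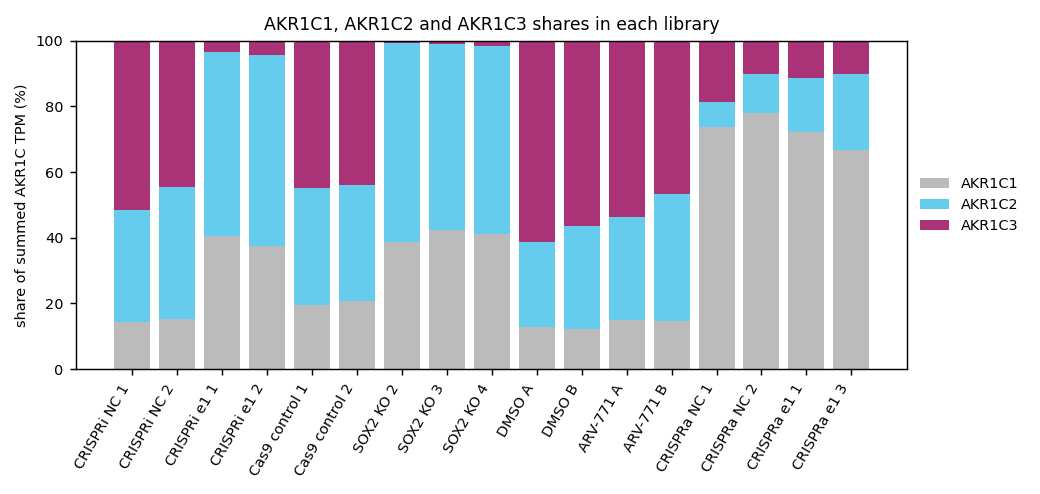
Share (%) of AKR1C1 (gray), AKR1C2 (light blue) and AKR1C3 (purple) in their summed TPM, 1 bar for each of the 17 libraries. AKR1C3 held 43.9% to 61.4% in the control libraries of KYSE140 and under 5% with e1 CRISPRi or SOX2 guides, and in SKMES1 AKR1C1 held most of the sum.

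Of a list of 10 regulators of the pathway, 2 rose and none fell on e1 repression, beside 9.3% and 10.7% of all genes. An unadjusted p under 0.05 (edgeR) was found for 5 of the 10, and for 7053 of all 13792 genes tested. NFE2L2 itself measured 51.2 and 52.8 TPM against 56.4 and 54.8 TPM, and KEAP1 89.5 and 91.5 TPM against 95.9 TPM in both e1 libraries, and neither was called. The 2 that rose were MAFF, a small MAF protein (log2 fold change 1.23 ± 0.16, adjusted p = 1.5e-05, edgeR), and SQSTM1, the autophagy receptor p62 that binds KEAP1 (0.77 ± 0.05, adjusted p = 5.0e-09, edgeR). Of 31 other NRF2 targets tested, 7 rose, 8 fell and 16 were not called, beside 9.3% risen and 10.7% fallen of all genes, with a median log2 fold change of -0.03. The largest changes were a fall of ABCB6, a porphyrin transporter (-1.69 ± 0.11, adjusted p = 3.3e-09, edgeR), and a rise of HMOX1, heme oxygenase 1 (1.63 ± 0.16, adjusted p = 4.6e-07, edgeR). ABCC3 (1.59 ± 0.18) and ABCC2 (1.37 ± 0.32), exporters of glutathione conjugates, rose too, ABCC2 from a level of only 0.525 TPM. None of the 6 genes of NADPH supply and none of the 3 other thioredoxin-system genes was called. Of the other aldo-keto reductases, 3 of 7 were tested, and AKR7A2 fell (-0.63 ± 0.08, adjusted p = 8.4e-06, edgeR). Cell-type markers moved with this comparison. KRT14 stood at a mean of 84.5 TPM in the controls and 1033 TPM with e1 guides, TP63 at 155 and 96.3 TPM, and the fibroblast gene COL1A1 at 14.7 and 37.8 TPM, and their part in the values above was not tested.

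**Figure D3:**
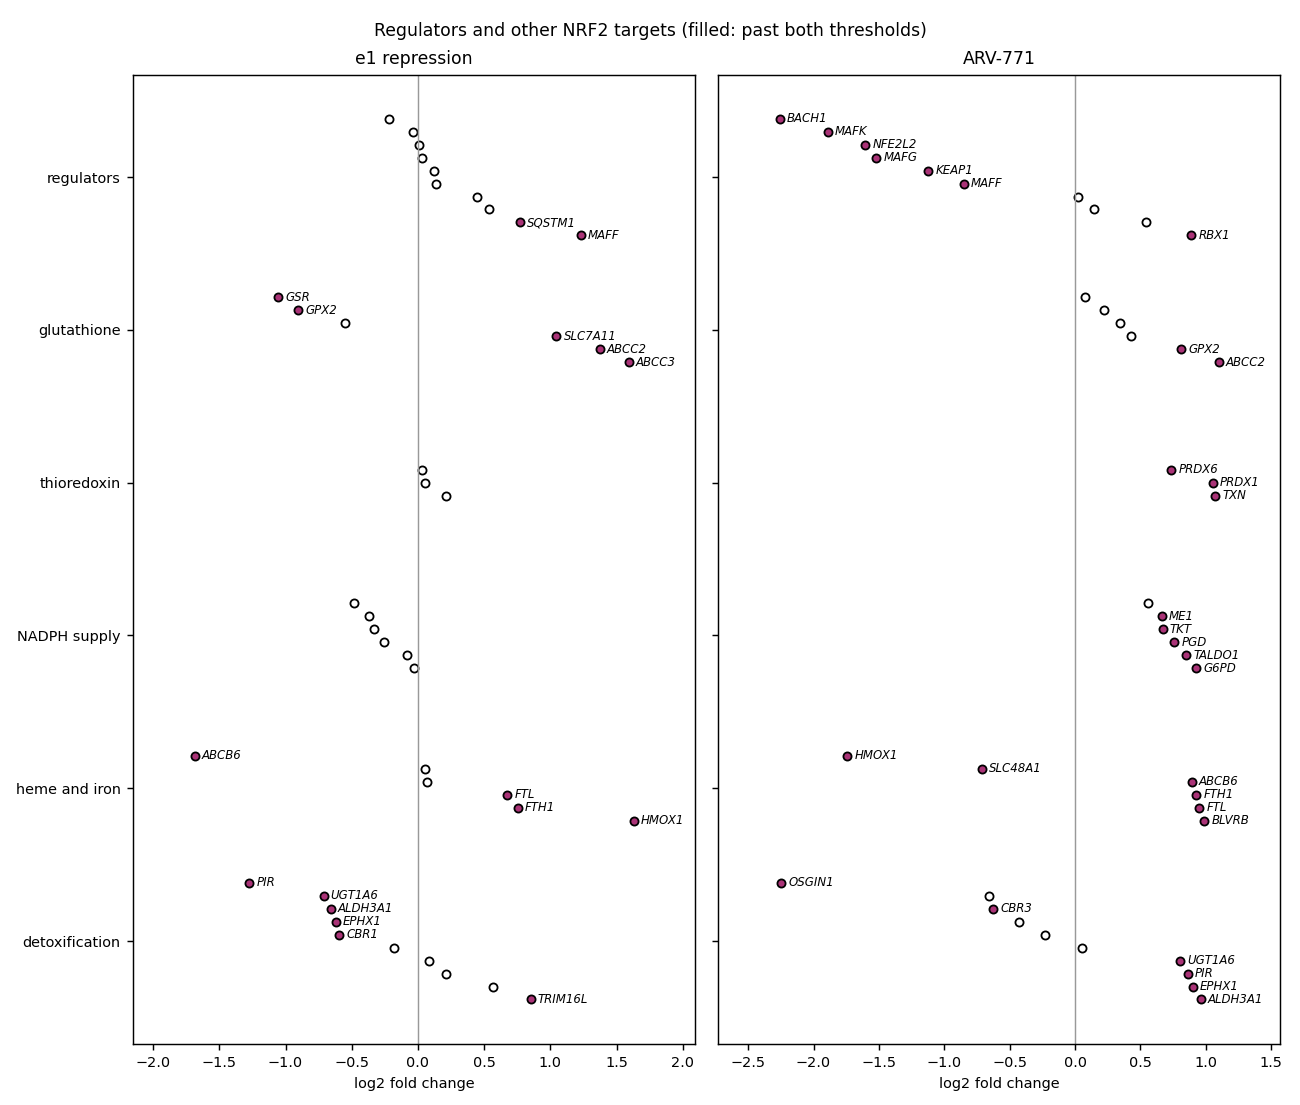
Fitted log2 fold change (TMM scale) of the regulators and other NRF2 targets that were tested, by function, on e1 repression (left) and ARV-771 (right); filled points passed both thresholds and are named, open points did not. On e1 repression HMOX1, ABCC2 and ABCC3 lie above 1 and ABCB6 lies at -1.69, and with ARV-771 BACH1 and OSGIN1 lie lowest.

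The second comparison, SOX2 knockout, is the one by which the set was chosen, and its values follow without a test. AKR1C3 measured 75.4 and 84.4 TPM in the Cas9 controls and 0.8, 1.25 and 1.88 TPM with SOX2 guides 2, 3 and 4, a fitted fold of 55.9 lower on 8.25, 6.18 and 14.5 expected counts. Among the SOX2-guide libraries that of guide 4 was highest in SOX2 transcript and in AKR1C3. With so few counts, a relation between them was not tested. AKR1B10, at 1.55 and 1.18 TPM in the controls, measured 4.7, 5.78 and 3.48 TPM. GCLM measured 16.9 and 17.9 TPM against 29.3, 31.8 and 30.4 TPM. In fitted fold, AKR1C1 stood 1.52-fold, AKR1B10 6.43-fold and GCLM 1.84-fold higher with SOX2 guides. AKR1B10 rested on only 8 and 4 expected counts in the controls. Since this contrast chose the set, nothing is read from these values. AKR1C1 was under 1.5-fold in 6 of 15 alternatives, among them library-size scaling (log2 difference 0.40). In 1 further alternative the AKR1C reads were summed, and that sum, which includes AKR1C3, stood at -0.45.

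AKR1C1 differed from AKR1C3 in direction, at 32.9 and 40.1 TPM in the controls and 44.01, 48.3 and 48.2 TPM with SOX2 guides. AKR1C2 hardly differed, at 59.4 and 67.7 TPM against 69.1, 64.7 and 67.1 TPM. TXNRD1 was lower in all SOX2-guide libraries, at 94.1, 102 and 137 TPM against 165 and 184 TPM, in contrast to its higher values on e1 repression. SRXN1 measured 20.1 and 21.2 TPM against 23.0, 23.4 and 23.1 TPM, NQO1 47.1 and 48.2 TPM against 59.99, 60.7 and 54.4 TPM, and GCLC 52.9 and 86.3 TPM against 46.2, 42.3 and 62.4 TPM. Library-size scaling moved the median of all genes by -0.21 (log2) here and the share of calls that were higher from 54.7% to 36.2% (38.9% and 39.1% on the TPM scale), and it turned AKR1C2 from 0.16 to -0.04. Among list genes, HMOX1 was higher (8.77 against 32.5 TPM, group means) and GSR, glutathione reductase, lower (88.5 against 20.0 TPM), as was PIR (47.5 against 13.3 TPM). CYP4F3 was listed at 0 TPM in both controls and had a mean of 1.16 TPM with SOX2 guides. Of the regulators, BACH1, MAFF, MAFK and SQSTM1 were higher, with log2 differences of 0.78 to 0.95, and the aldo-keto reductase AKR7A2 was lower (-0.81). NFE2L2 did not separate the groups (52.8 and 58.3 TPM against 51.0, 50.4 and 53.9 TPM). Markers differed alongside: mean KRT14 was 152 TPM in the controls and 2334 TPM with SOX2 guides, TP63 174 and 66.5 TPM, and COL1A1 12.5 and 41.7 TPM. Their part in these values was not tested.

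**Figure D4:**
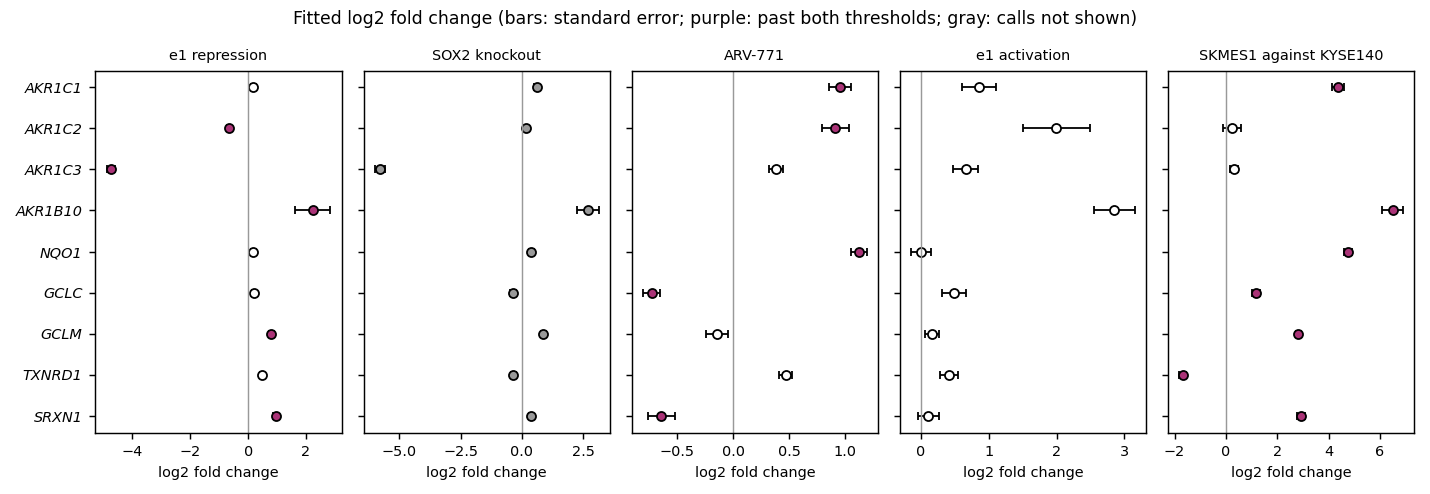
Fitted log2 fold change (TMM scale, positive where higher in the perturbed group or in SKMES1) of the 9 genes in 5 comparisons, with standard errors as bars and an axis of its own in each panel. Purple points passed both thresholds, white points did not, gray points are the SOX2 knockout values given without a test, and AKR1B10 has no ARV-771 point because it did not pass the count filter.

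The third comparison asked how the genes responded to 6 h of ARV-771, which removes BET proteins, readers of acetylated chromatin needed for the expression of many enhancer-driven genes. GCLC and SRXN1 fell under each scaling of the libraries, although SRXN1 missed the fold threshold without ARV-771 replicate A (-0.52) and with all libraries in one fit (-0.57). GCLC measured 40.1 and 46.2 TPM with DMSO and 15.9 and 13.5 TPM with ARV-771, and SRXN1 15.7 and 14.9 TPM against 5.27 and 6.56 TPM. On the TMM scale the log2 fold changes were -0.73 ± 0.08 for GCLC (adjusted p = 5.8e-09, edgeR) and -0.64 ± 0.12 for SRXN1 (adjusted p = 3.8e-05, edgeR). Scaled to the mitochondrially encoded genes, they were -1.80 and -1.72.

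For AKR1C1, AKR1C2, AKR1C3 and TXNRD1 the direction depended on the scale, and for NQO1 and GCLM the size and the call did. The median of all genes was at -0.45 (log2) with scaling to library size and at -1.07 with scaling to mitochondrial genes, and near 0 with TMM, which holds the typical gene level. The mitochondrial share of counts was 4.67% and 5.28% with DMSO and 7.74% and 7.52% with ARV-771. On the TMM scale, that is relative to the typical gene, NQO1 rose by 1.12 ± 0.07 (adjusted p = 7.9e-13, edgeR), but scaled to mitochondrial genes it stood at 0.04. AKR1C1 rose by 0.95 ± 0.10 and AKR1C2 by 0.91 ± 0.12 on the TMM scale, and both turned to -0.13 and -0.16 on the mitochondrial scale. In TPM, NQO1 measured 76.3 and 81.4 against 101 and 108, without overlap, while the groups of AKR1C1 and AKR1C2 overlapped. AKR1C3 measured 172 and 167 TPM with DMSO and 126 and 139 TPM with ARV-771. Its TMM log2 fold change of 0.38 ± 0.06 was not called and turned to -0.08 with library-size and -0.70 with mitochondrial scaling. SOX2 itself stood at 9.8 and 10.5 TPM with ARV-771 against 236 and 223 TPM with DMSO.

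GCLM measured 11.5 and 9.42 TPM against 4.85 and 5.21 TPM, without overlap, but on the TMM scale the log2 fold change was -0.14 ± 0.10 and was not called (adjusted p = 0.197, edgeR). It was called lower in 4 alternatives, at -0.60 with library-size scaling, -0.92 and -1.03 in the limma fits and -1.22 on the mitochondrial scale. TXNRD1 measured 96.3 and 112 TPM against 80.3 and 83.7 TPM, with a TMM log2 fold change of 0.47 ± 0.06, under the fold threshold, and -0.61 on the mitochondrial scale. AKR1B10 did not pass the count filter (0.56 and 0.58 TPM against 1.22 and 1.08 TPM), which left 8 of the 9 genes. On the TMM scale 3 of these 8 rose and 2 fell, beside 21.2% risen and 31.7% fallen of all 13500 genes tested. On the mitochondrial scale none rose and 5 fell. Of all calls, 40.0% were risen with TMM, 5.90% with library-size scaling, 1.89% and 1.73% on the TPM scale and 0.823% with mitochondrial scaling.

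**Figure D5:**
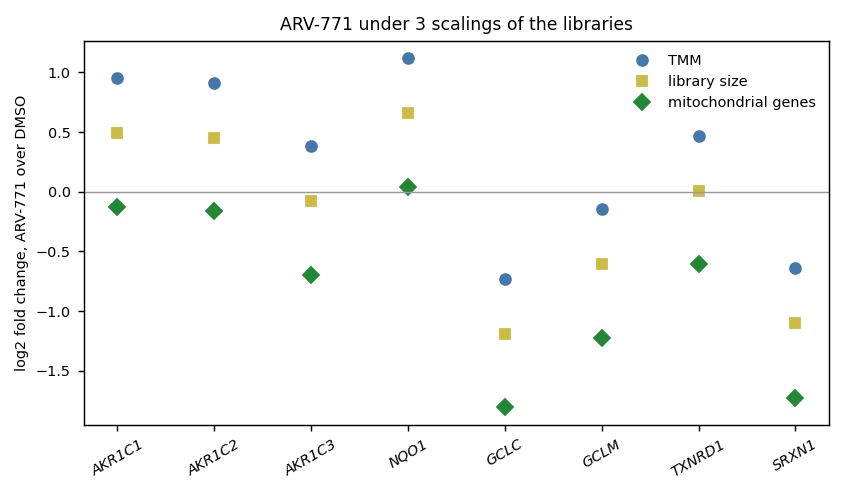
Log2 fold change of ARV-771 over DMSO for the 8 genes tested, under TMM (circles), library-size (squares) and mitochondrial scaling (diamonds). GCLC and SRXN1 lie below 0 under each scaling, whereas AKR1C1, AKR1C2, AKR1C3 and TXNRD1 cross 0.

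Transcripts of NRF2 and of most of its regulators fell on each scale. NFE2L2 fell from 59.8 and 65.3 TPM to 12.4 and 13.1 TPM, with a TMM log2 fold change of -1.60 ± 0.08 (adjusted p = 5.6e-15, edgeR) and a range of -2.68 to -1.53 over the 16 alternatives run. KEAP1 fell from 75.3 and 77.6 TPM to 20.7 and 21.6 TPM (-1.12 ± 0.07, range -2.20 to -1.05). BACH1 (-2.26 ± 0.16), MAFK (-1.89 ± 0.10) and MAFG (-1.52 ± 0.11) fell in every one of the same 16 alternatives. MAFF (-0.85 ± 0.29) was called in 9 of 15 alternatives, and RBX1, part of the ubiquitin ligase that acts with KEAP1, rose by 0.89 ± 0.07 on the TMM scale but turned to -0.20 on the mitochondrial scale. In all, 6 of 10 regulators fell and 1 rose on the TMM scale, beside 31.7% and 21.2% of all genes. Squamous markers were lower in TPM alongside, TP63 with a mean of 149 TPM in DMSO and 30.9 TPM in ARV-771 and SFN with 444 and 135 TPM, and their part in these values was not tested.

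Of the 31 other NRF2 targets tested, 18 rose and 4 fell on the TMM scale, beside 21.2% and 31.7% of all genes, but none rose and 12 fell on the mitochondrial scale. OSGIN1, an oxidative-stress growth inhibitor (-2.25 ± 0.36, adjusted p = 4.3e-06, edgeR), and HMOX1 (-1.74 ± 0.37, adjusted p = 0.00015, edgeR) fell under each of the 15 alternatives that gave a value. HMOX1 measured 3.45 and 4.12 TPM with DMSO and 0.52 and 0.76 TPM with ARV-771. TXN, thioredoxin, rose by 1.07 ± 0.05 on the TMM scale, with a lowest value of -0.01 over the alternatives, and ABCC2 was called higher by counts (1.10 ± 0.41, adjusted p = 0.018, edgeR) in 7 of 13 alternatives, while its TPM of 1.11 and 0.38 with DMSO enclosed those with ARV-771 (0.54 and 0.41). The other aldo-keto reductases AKR1A1 (0.93 ± 0.07), AKR1B1 (1.05 ± 0.06) and AKR7A2 (0.94 ± 0.07) rose together on the TMM scale and stood at -0.03 to -0.15 at their lowest over the alternatives.

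The fourth comparison turned to SKMES1, in which CRISPRa at e1 brought SOX2 from under 2 TPM to over 200 TPM (log2 fold change 7.34 ± 0.26, adjusted p = 0.0045, edgeR). None of the 9 genes was called. An unadjusted p under 0.05 (edgeR) was found for 6 of them, and for 2109 of all 14859 genes tested. In all, 0.168% of 14859 genes rose and 0.0202% fell, 28 genes together, and the spread between replicates was wide, with a biological coefficient of variation of 0.166 against 0.0474 for e1 repression in KYSE140.

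The aldo-keto reductases showed the largest values of the set. AKR1B10 measured 47.8 and 34.2 TPM with control guides and 237 and 399 TPM with e1 guides, a log2 fold change of 2.85 ± 0.30 with adjusted p = 0.0609 (edgeR). AKR1C2 measured 74.4 and 168 TPM against 336 and 686 TPM (2.00 ± 0.50, adjusted p = 0.197, edgeR), and AKR1C1 708 and 1114 TPM against 1453 and 1991 TPM (0.85 ± 0.25, adjusted p = 0.242, edgeR). AKR1C3 measured 178 and 146 TPM against 226 and 303 TPM (0.66 ± 0.18, adjusted p = 0.231, edgeR). In each of these 4 genes both e1 libraries lay above both controls, as they also did for TXNRD1, GCLC and GCLM. How many of all genes separated in this way was not counted, so nothing is read from these separations. Replicates differed as well, AKR1C2 by more than 2-fold within each group. Other tools gave other calls: edgeR's exact test called AKR1C2 and AKR1B10 (adjusted p = 0.0063 and 1e-14), and DESeq2 called AKR1C1, AKR1C3 and AKR1B10 (adjusted p = 0.011, 0.0397 and 8.8e-23). Without control replicate 2, the library with KRT14, the log2 fold changes were 1.20 for AKR1C1, 2.69 for AKR1C2 and 2.62 for AKR1B10. Leaving out control replicate 1 changed calls as well, as given in the last section. Over all alternatives the adjusted p of AKR1B10 ranged from 4.0e-90 to 0.147, and its log2 fold change from 2.43 to 3.18.

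The remaining genes differed less. TXNRD1 measured 80.0 and 81.0 TPM with control guides and 125 and 129 TPM with e1 guides, yet by counts the log2 fold change was 0.41 ± 0.14 (adjusted p = 0.294, edgeR). GCLC measured 147 and 112 TPM against 173 and 202 TPM (0.49 ± 0.18, adjusted p = 0.317, edgeR). GCLM (0.17 ± 0.10), SRXN1 (0.11 ± 0.15) and NQO1 (0.0035 ± 0.15) did not pass the test either. NQO1, at 1989 and 1629 TPM against 1912 and 1771 TPM, overlapped between groups. No regulator, no other aldo-keto reductase and none of 35 other NRF2 targets tested was called. Of the 35, 12 had an unadjusted p under 0.05 (edgeR), beside 2109 of all 14859 genes tested. HMOX1, named here after its values were seen, stood at 111 and 116 TPM against 236 and 292 TPM. NFE2L2 measured 93.2 and 96.3 TPM against 111 and 128 TPM. The squamous keratin KRT5 stayed at or under 1.26 TPM in all 4 libraries, also with SOX2 raised.

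The fifth comparison set the control-guide libraries of both lines side by side. Line and Cas9 fusion cannot be told apart here, since the KYSE140 libraries carried CRISPRi and the SKMES1 libraries CRISPRa, and the control libraries are those used in the first and the fourth comparisons. NQO1 was 27.3-fold higher in SKMES1, AKR1C1 20.6-fold, SRXN1 7.60-fold, GCLM 7.03-fold and GCLC 2.24-fold, and AKR1B10, almost absent from KYSE140, stood at 34.2 and 47.8 TPM. TXNRD1 alone of the 9 was lower, by 3.20-fold in counts. Of the 9 genes 6 were called higher in SKMES1 and 1 lower, beside 30.4% and 25.2% of all 15100 genes tested. Without AKR1B10, which entered the test only through SKMES1, 5 of 8 were higher.

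For NQO1, 62.0 and 66.8 TPM in KYSE140 stood against 1989 and 1629 TPM in SKMES1 (log2 difference 4.77 ± 0.16, adjusted p = 1.8e-05, edgeR). GCLM measured 12.98 and 18.5 TPM against 121 and 125 TPM (2.81 ± 0.09, adjusted p = 1.8e-05, edgeR), and SRXN1 16.2 and 18.4 TPM against 161 and 126 TPM (2.93 ± 0.16, adjusted p = 6.7e-05, edgeR). The difference of AKR1C1 was 4.36 ± 0.23 and that of GCLC 1.17 ± 0.16. AKR1B10 differed by 6.49 ± 0.41 (adjusted p = 0.0001, edgeR) on 2 and 7 counts in KYSE140, and it passed the count filter through SKMES1 alone. For TXNRD1 the log2 difference of counts was -1.68 ± 0.13 (adjusted p = 0.00021, edgeR), while the mean TPM was 132 in KYSE140 and 80.5 in SKMES1, a smaller ratio whose cause was not tested.

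AKR1C3 and AKR1C2 were not called between the lines. AKR1C3 measured 146 and 123 TPM in KYSE140 and 178 and 146 TPM in SKMES1 (log2 difference 0.33 ± 0.15, adjusted p = 0.0977, edgeR). SOX2 stood at 1.68 and 1.53 TPM in the SKMES1 libraries, against 379 and 365 TPM in KYSE140, and its part in the level of AKR1C3 was not tested. For AKR1C2 the SKMES1 replicates (74.4 and 168 TPM) enclosed both KYSE140 values (96.3 and 112 TPM). Its log2 difference turned from 0.23 to -0.45 without SKMES1 control replicate 2. Without SKMES1 control replicate 1 it lay past the fold threshold on the SKMES1 side. In consequence AKR1C1 made up 73.7% and 78.0% of the summed AKR1C TPM in SKMES1 controls and 14.2% and 15.2% in KYSE140 controls.

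Of 36 other NRF2 targets tested, 21 were higher in SKMES1 and 5 lower (GPX2, ABCC1, UGT1A6, SLC48A1 and ABCB6), beside 30.4% and 25.2% of all genes, with a median log2 difference of 1.35 (0.05 over all genes). Among those higher, MGST1, NR0B1, CES1, CYP4F3 and CYP4F11 had means of at most 0.05 TPM in KYSE140. They passed the count filter through SKMES1 alone and could only be called higher there. GPX2 likewise passed it through KYSE140 alone. The counts and the median include these genes. CYP4F11, a fatty-acid hydroxylase, stood at a mean of 0.05 TPM in KYSE140 and 30.3 TPM in SKMES1, MGST1 at 0 and 364 TPM, and NR0B1 at 0 and 34.4 TPM. GPX2, a glutathione peroxidase, went the other way, from 190 to 0.62 TPM. Of the regulators, 5 were higher, namely NFE2L2 (log2 difference 0.76 ± 0.07), CUL3 (0.62 ± 0.08), MAFG (1.59 ± 0.10), MAFK (0.73 ± 0.09) and SQSTM1 (2.41 ± 0.22), and RBX1 was lower (-1.30 ± 0.12). KEAP1, at 89.5 and 91.5 TPM against 86.6 and 75.3 TPM, was not called.

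The order of levels across the 8 groups is given as a description, since the low AKR1C3 level with SOX2 guides chose the set. Mean TPM of AKR1C3 was lowest with SOX2 guides (1.31 ± 0.54, SD, n = 3) and next with e1 CRISPRi (4.73 ± 0.86, n = 2), followed by the Cas9 controls (79.9 ± 6.34). ARV-771, the CRISPRi controls, the SKMES1 controls and DMSO then overlapped in sequence from 133 to 169 TPM, and e1 CRISPRa was highest (264 ± 54.7). The Cas9 controls thus stood below the other KYSE140 controls. NQO1 and GCLM separated the lines instead: in NQO1 all KYSE140 groups lay between 47.7 and 105 TPM and both SKMES1 groups above 1800 TPM, which did not differ beyond their spread. AKR1B10 ranged over the KYSE140 groups from 0.405 (CRISPRi controls) to 4.65 TPM (SOX2 guides), reached 41.0 in SKMES1 controls and was highest with e1 CRISPRa, at 318 TPM.

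The genes whose levels ran most like those of AKR1C3 over the 13 KYSE140 libraries, by Pearson's r of log2(TPM + 1) among 10528 genes of at least 5 TPM on average, were REEP2 (r = 0.999), NELL2 (0.993) and METTL7A (0.993). These points fall into a few groups of widely separate level, so r describes a contrast of groups. The SOX2-guide libraries, by which the set was chosen, are among the 13. REEP2 measured 45.4 TPM in CRISPRi controls and 7.9 TPM with e1 guides (group means), METTL7A 97.8 and 5.34 TPM. In SKMES1 with e1 CRISPRa, where AKR1C3 was at its highest, METTL7A stood at 0.115 TPM. NQO1 ran most like ATP5O (r = 0.923), PPIA (0.881) and MFI2 (0.878), the first a mitochondrial ATP synthase subunit and the second cyclophilin A. Among the 9 genes, GCLM and SRXN1 (r = 0.940) and GCLC and SRXN1 (0.887) ran together over the 13 libraries. NQO1 ran opposite to GCLC (r = -0.798), GCLM (-0.669), SRXN1 (-0.662) and TXNRD1 (-0.615). AKR1C3 and AKR1B10 also ran in opposite directions (r = -0.945).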

How the data were processed

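Poly-A RNA of 17 libraries was sequenced from directional libraries. The authors quantified genes on hg19 (GRCh37) by RSEM after Bowtie2 alignment (versions and strand setting not given in the sources used here). The deposited expected counts are RSEM estimates, not normalized, and the deposited TPM values were scaled by the authors within each library for effective length. FPKM was not used. The 9 genes and all lists were chosen with earlier results of these data known.

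Expected counts were rounded and tested with edgeR 4.0.16 (R 4.3.3), using TMM, filterByExpr (minimum count 10, minimum total 15), the quasi-likelihood test and Benjamini-Hochberg adjustment over all genes, with only the libraries compared. A gene was called past 1.5-fold when its adjusted p was below 0.05. Each SE was derived from the estimate and its F statistic. On simulated counts with 200 genes changed 3-fold, 200 were recovered at the e1 repression settings (13792 genes, 3 false calls) and 199 at the e1 activation settings (14859 genes, 6 false calls). The simulated spread between replicates followed the fitted trend with level, without genes departing from it and without an outlying library. These recoveries therefore do not give the power to find changes in the real libraries. Alternatives were DESeq2 1.42.0, limma 3.58.1 on log2(TPM + 1) or log2(TPM + 0.1), edgeR's exact test, other scalings and filters, summed AKR1C and AKR1B reads, and leaving out each library.

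Replicate pairs differed beyond counting noise (chi-square per degree of freedom 2.16 to 26.6). Limits from depth cover counting error only. Genes named were the 9, SOX2, their read-sharing partners, called regulators and aldo-keto reductases, up to 4 called NRF2 targets of largest change per comparison, and 3 genes nearest in pattern to AKR1C3 and NQO1. NFE2L2, KEAP1 and cell-type markers are also given where not called. Coordinates are from GENCODE 44 lifted to GRCh37 and promoters from RefSeq on GRCh38.p14.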

Additional observations from a re-analysis of the deposited data

How the results depend on the processing

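On e1 repression, AKR1C3, GCLM and SRXN1 stayed called under the alternatives run, except GCLM and SRXN1 at a fold over 2. Genes called numbered 6103 with no minimum fold and 1526 with a fold over 2, against 2764, and members called were 2 of 9 with a fold over 2. The summed AKR1C reads stood at -1.20, a value of the AKR1C genes together that includes AKR1C3, while AKR1C1 alone was at 0.18. For SOX2 knockout, genes called were 7123 (no minimum fold) and 2339 (fold over 2), against 4157. Member counts are not compared here, since this contrast chose the set. AKR1C2 turned to -0.0373 with library-size scaling. The summed AKR1C reads stood at -0.45, again a value of the AKR1C genes together.

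With ARV-771, genes called were 3809 at a fold over 2, against 7136, and members 1 at that fold and 3 in both limma fits, against 5. AKR1C3 turned to -0.0784 (library size), -0.35 and -0.35 (limma) and -0.70 (mitochondrial), TXNRD1 to -0.34 and -0.34 (limma) and -0.61 (mitochondrial), and AKR1C1 and AKR1C2 to -0.13 and -0.16 (mitochondrial).

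For e1 activation, the 28 genes called became 523 (exact test), 400 (DESeq2), 1116 (no filter), 9 and 8 (limma) and 784 (all libraries in one fit), and members called became 2, 3, 4, 0, 0 and 4, with 1 under library-size scaling. Leaving out 1 library gave 1 to 764 genes and 0 to 4 members: 764 and 4 without negative-control replicate 1, 262 and 3 without negative-control replicate 2, 1 and 0 without e1 replicate 3. NQO1 ranged from -0.15 to 0.18 and SRXN1 from -0.0731 to 0.32 in these fits. Between the lines, AKR1C2 ranged from -0.45 (without SKMES1 control replicate 2) to 0.70 (without replicate 1). The cause of these changes was not tested.

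With the replicate block, 2807, 7090 and 8230 genes were called for e1 repression, ARV-771 and the comparison of lines, and 5, 5 and 7 members, as without it; same-numbered libraries did not deviate together (correlations 0.02, -0.0017 and 0.04), so the numbers were not taken to pair them. No paired analysis was possible for SOX2 knockout and e1 activation because their groups shared fewer than 2 numbers. AKR1B10 in KYSE140 rested on 2 to 64 counts per library, and levels under 0.19 to 0.413 CPM could not be measured.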
